A study of Homo sapiens with 32 samples.

Results

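Histone-modifying enzyme mRNAs were the messages of the genes that write, erase or read the chemical marks on histones. They were chosen by name from the coding transcripts of autosomal genes: symbols starting KMT, KDM, SETD or PRDM, those starting KAT, HDAC, SIRT or BRD followed by a digit, and EP300, CREBBP, EZH1, EZH2, NSD1, NSD2, NSD3, EHMT1, EHMT2, DOT1L and SUV39H2. Of 10829 genes with a decay rate in both cell lines, 67 met this rule, with 84 transcripts between them. They comprised 36 writers (9 acetyltransferases and 27 methyltransferases), 19 erasers (10 demethylases and 9 deacetylases), 5 PRDM genes and 7 bromodomain (BRD) genes. These classes follow gene families, and the activity of each product was not checked.

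The question was how message stability differs between 2 human lines: MDA-MB-231, an established line from breast cancer, and MDA-LM2, obtained from it by selection for lung metastasis. Cells of both lines were given 4-thiouridine (4sU), a uridine analogue taken up into new RNA, for 2 h, and the label was then chased with uridine. Labelled RNA was sequenced at 0, 2, 4 and 7 h from 4 replicate series per line, 32 libraries in all, and the authors deposited 1 decay rate per transcript and series. The labels name no other treatment and no engineered change in either line, and with 1 line on each side every difference is one between these lines. Whether the series are separate cultures is not stated, and p-values therefore cover only the spread among these series, which may be technical.

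Acetyltransferases and lysine methyltransferases place acetyl and methyl groups on histone tails, and deacetylases and demethylases remove them. Bromodomain proteins bind acetylated lysine, and the PRDM proteins share a domain related to that of the SET methyltransferases, which only some of them are known to use as an enzyme. How long such a message lasts after it is made is one of the controls on how quickly its enzyme can be replaced. Several enzymes in these families also act on proteins other than histones, SIRT1, SETD3 and SETD6 among them.

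AU-rich elements in the 3′ UTR are the best known sequence elements of short-lived messages, so the elements that these genes carry are shown first. The 9-base form TTATTTATT was searched on the message strand of the annotated 3′ UTRs (GENCODE v29, build GRCh38, joined by RefSeq accession). It lay in the 3′ UTR of 8 of the 67 genes, 11.9%, against 9.05% of the 9618 coding genes with an annotated UTR. The 4 sites below were picked to span fast and slow messages, each written 5′ to 3′ with the element in capitals. The site of BRD3 is at chr9:134032682-134032710 on the minus strand, that of CREBBP at chr16:3726587-3726615 on the minus strand, that of DOT1L at chr19:2230747-2230775 on the plus strand, and that of HDAC2 at chr6:113938147-113938175 on the minus strand.
BRD3: atataaatagTTATTTATTaacatcattg
CREBBP: tttaaggtttTTATTTATTtatatatatt
DOT1L: ggaaaaaaccTTATTTATTcaaacagtgc
HDAC2: cctattatgtTTATTTATTttttcttttt
The element was present in both a fast and a slow message: the mean over all 8 rates was 0.348 for DOT1L and 0.0892 for HDAC2, on the scale defined in the next paragraph. The shorter ATTTA, which also lies within the longer forms, was present in 74.6% of the 67 genes and in 72.4% of all coding genes, and TATTTAT in 44.8% and 34.2%. The coding parts of the messages differed more: their median length was 2726 bases, against 1371 over all coding genes, while the median 3′ UTR was 1145 bases against 1068.

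Rates are given in the deposited unit, and its log base and scaling are unknown. A positive rate means that the labelled RNA fell with time, and a larger rate means faster decay. A gene's value is the median over its coding transcripts, or over its other transcripts where it has no coding one. Errors are SDs of the 4 series in that line, and series are listed in the order 1_1, 1_2, 2_1, 2_2. Rates farther than 1 from 0 lay in clusters of their own, and genes with all 8 rates within 1 are called in range here. Of all genes, 31.6% had a rate beyond 1 in at least 1 series of MDA-MB-231 and 9.56% in MDA-LM2. Series with the same second number in their name were more alike than the others within a line (Spearman rho across 7259 in-range genes 0.885 to 0.914 against 0.764 to 0.778 in MDA-LM2, with 0.643 to 0.785 against 0.306 to 0.429 in MDA-MB-231), so results are also given from a fit that estimates this correlation, and genes are not independent replicates.

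As a group, these messages decayed faster than the typical message in MDA-LM2 and closer to it in MDA-MB-231. Their median rate was 0.243 ± 0.0198 (SD, n = 4 series) in MDA-LM2, where the median of all genes was 0.164 ± 0.0106. In MDA-MB-231 the values were 0.220 ± 0.0339 and 0.188 ± 0.0154. Expressed as a rank among all genes of the same series, the median gene of the group stood at percentile 70.5 ± 1.80 in MDA-LM2 against 56.9 ± 3.61 in MDA-MB-231. Over the 46 genes in range the medians were 0.240 ± 0.0161 and 0.189 ± 0.0335, beside 0.151 ± 0.0115 and 0.159 ± 0.0155 for all 7259 genes in range. These are descriptions of the group, and no test was made of them.

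**Figure D1:**
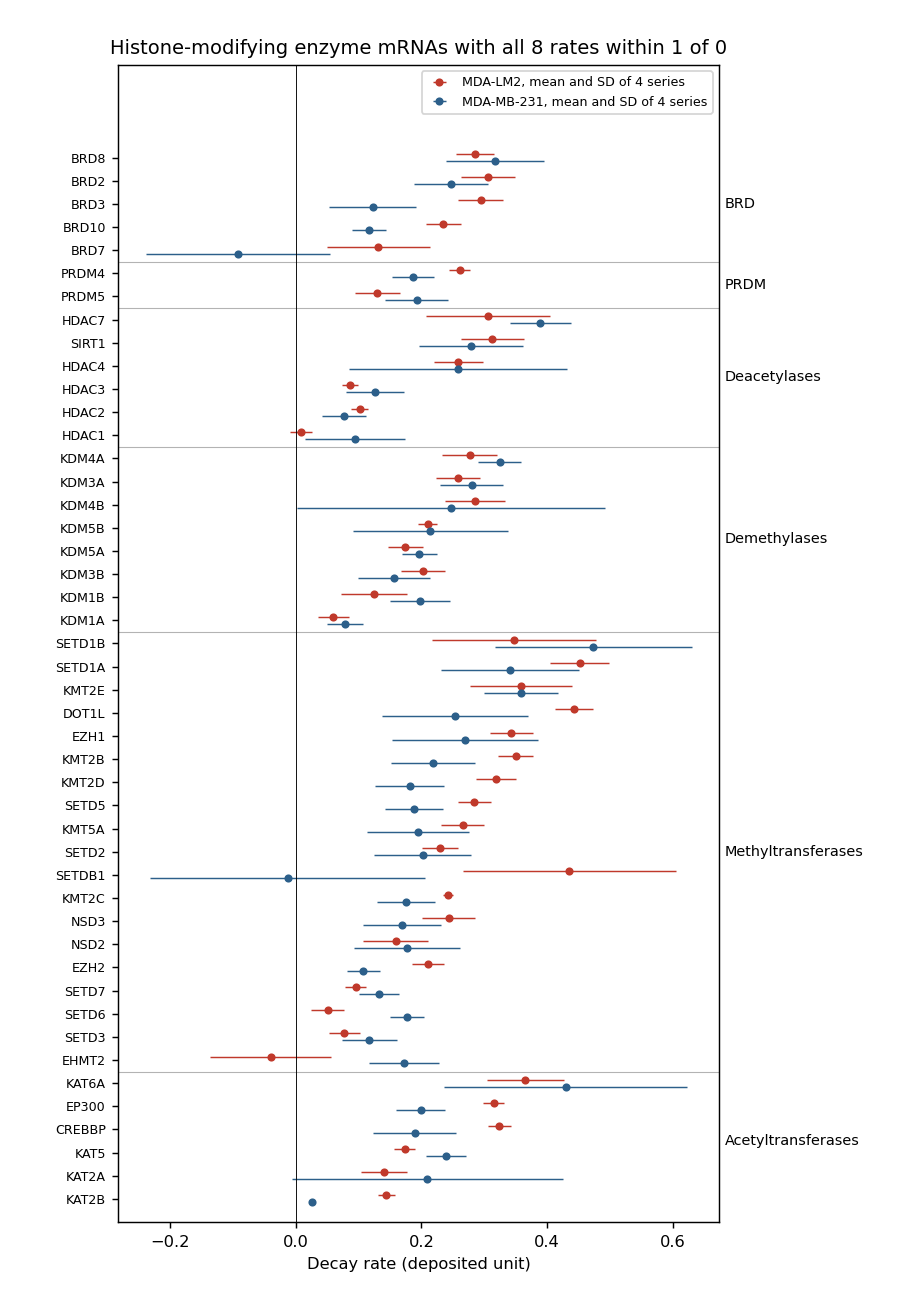
Decay rate (deposited unit, x axis) of the 46 histone-modifying enzyme genes with all 8 rates within 1 of 0, grouped by class. Points are means and bars SDs of the 4 series of MDA-LM2 (red) and MDA-MB-231 (blue); the BRD3, EZH2, EP300 and KAT2B points of MDA-LM2 lie to the right of those of MDA-MB-231, and SETD6 lies to the left.

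The fastest messages in range belonged mainly to genes listed as methyltransferases. By the mean over all 8 rates they were SETD1B (0.410) and SETD1A (0.396), the catalytic subunits of the SET1 complexes that methylate histone H3 lysine 4 (H3K4), KAT6A (0.397), an acetyltransferase, KMT2E (0.359), a SET domain protein, and DOT1L (0.348), the H3 lysine 79 methyltransferase. SETD1A had rates of 0.397, 0.493, 0.489 and 0.427 in MDA-LM2 against 0.295, 0.209, 0.424 and 0.437 in MDA-MB-231. DOT1L had 0.450, 0.453, 0.468 and 0.399 in MDA-LM2 against 0.320, 0.0827, 0.279 and 0.333 in MDA-MB-231. All 4 rates of DOT1L in MDA-LM2 lay above all 4 in MDA-MB-231, but its difference did not pass the test (limma, Benjamini-Hochberg adjusted p = 0.0994), and the SETD1A rates of the lines overlapped.

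The slowest messages in range by that mean were those of BRD7 (mean 0.0199), a bromodomain subunit of a SWI/SNF complex, HDAC1 (0.0515), EHMT2 (0.0664), KDM1A (0.0696) and KAT2B (0.0850). BRD7 had 0.129, 0.246, 0.0561 and 0.0939 in MDA-LM2 against -0.0795, 0.112, -0.196 and -0.202 in MDA-MB-231. It stood at percentile 38.2 of all genes in MDA-LM2 and at 2.66 in MDA-MB-231, so its low mean came from MDA-MB-231. HDAC1, the class I deacetylase of several corepressor complexes, had 0.0165, 0.0161, 0.0184 and -0.0184 in MDA-LM2 against 0.0291, 0.196, 0.0335 and 0.121 in MDA-MB-231. Every MDA-LM2 rate of HDAC1 was below every MDA-MB-231 rate, with a difference that missed the threshold (limma adjusted p = 0.215). EHMT2, the H3 lysine 9 (H3K9) methyltransferase G9a, had 0.0225, -0.117, 0.0627 and -0.126 in MDA-LM2 against 0.170, 0.0963, 0.229 and 0.194 in MDA-MB-231. Its MDA-LM2 rates straddled 0 and none reached the lowest of MDA-MB-231 (limma adjusted p = 0.0540, and 0.0343 when only genes in range were fitted).

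As whole lists, writers and erasers stood in a different order in the lines. In MDA-LM2 the median rate of the 36 writers was 0.244 ± 0.0205 and that of the 19 erasers 0.222 ± 0.0225. In MDA-MB-231 the writers had 0.197 ± 0.0376 and the erasers 0.250 ± 0.0586. Taken within each series, writers minus erasers was 0.0217, 0.0192, 0.0242 and 0.0247 in MDA-LM2 against -0.0343, -0.0507, -0.0973 and -0.0266 in MDA-MB-231. The difference was thus positive in 4 of 4 series of MDA-LM2 and in 0 of 4 of MDA-MB-231, with means of 0.0225 ± 0.00253 and -0.0522 ± 0.0317.

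The order in MDA-MB-231 held less firmly among genes in range. There the 25 writers and 14 erasers had medians of 0.260 ± 0.0170 and 0.204 ± 0.0194 in MDA-LM2, with 0.188 ± 0.0378 and 0.208 ± 0.0602 in MDA-MB-231. Writers minus erasers was 0.0565 ± 0.0112, again positive in 4 of 4 series of MDA-LM2, and -0.0206 ± 0.0412 in MDA-MB-231, where 1 of 4 series was positive. With the mean over genes in place of the median the sign turned in MDA-LM2 (-0.0236), a value that the rates beyond 1 of single genes enter. Without the measured sirtuins SIRT1 and SIRT6 the median difference was 0.0235 ± 0.00343 in MDA-LM2 and shrank to -0.0251 ± 0.0475 in MDA-MB-231, less than the spread of its series. The difference between writers and erasers carries no test, because the lists were chosen with results of these data known.

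**Figure D2:**
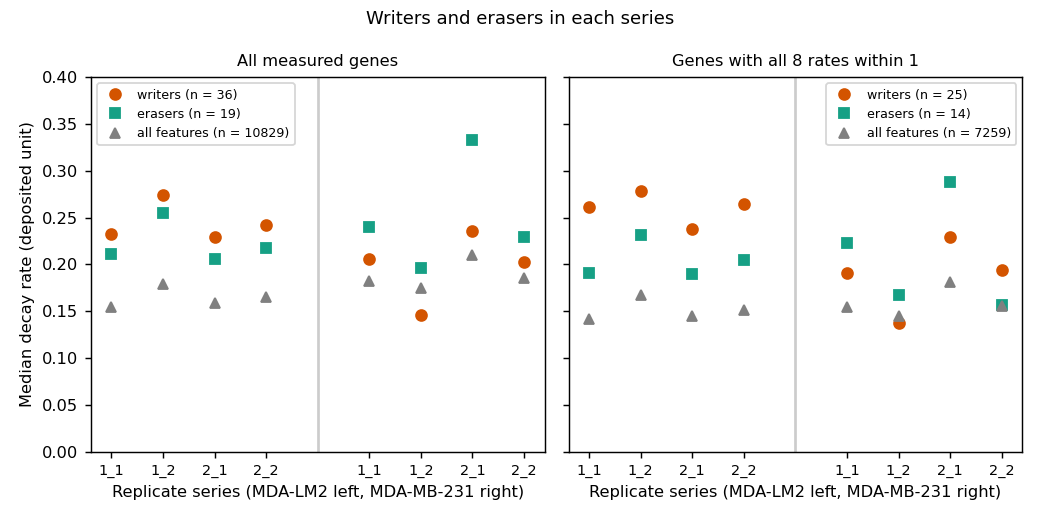
Median decay rate (deposited unit, y axis) of writers, erasers and all features in each replicate series (x axis), over all measured genes (left panel) and over genes with all 8 rates within 1 (right panel). In the left panel the writers lie above the erasers in the 4 MDA-LM2 series and below them in the 4 MDA-MB-231 series.

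The direction of the difference between lines was mixed. The mean rate was higher in MDA-LM2 for 20 of 36 writers (55.6%) and for 5 of 19 erasers (26.3%), beside 33.2% of all genes. In range these counts were 16 of 25 writers and 5 of 14 erasers, beside 42.1% of all genes. The erasers' count depended on scaling: with each series centred on its median over all genes, 9 of 19 erasers and 21 of 36 writers were higher (40.8% of all genes), and in range 9 of 14 and 17 of 25 (53.4%).

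Genes whose lines did not overlap were counted next. All 4 rates of MDA-LM2 lay above all 4 of MDA-MB-231 for 13 of the 67 genes, against 5.65% of all genes. These 13 were in range and comprised 10 writers (CREBBP, EP300, KAT2B, DOT1L, EZH2, KMT2B, KMT2C, KMT2D, SETD5 and SETDB1), 0 erasers, 2 bromodomain genes (BRD3 and BRD10) and PRDM4. Over genes in range the same held for 7.52% of all genes and 13 of 46 here.

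All 4 rates lay below in 8 of the 67 genes, against 17.5% of all genes. These were 4 writers (EHMT2, KAT5, SETD6 and SETD9), 3 erasers (HDAC1, KDM2B and SIRT6) and PRDM11. Among genes in range there were 4 of 46 (EHMT2, HDAC1, KAT5 and SETD6), against 15.2% of all genes. The share with MDA-LM2 above was larger in this group than in the background, and the share with MDA-LM2 below smaller. Replicates were more scattered in MDA-MB-231: the median SD of the genes in range was 0.0330 in MDA-LM2 against 0.0580 in MDA-MB-231, and the SD was larger in MDA-MB-231 for 39 of 46 genes (79.9% of all genes in range).

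The limma fit of 4 against 4 series over all 10829 genes, with Benjamini-Hochberg adjustment, called 9 of the 67 genes at an adjusted p of 0.05. Decay was slower in MDA-LM2 for 4 (KDM2B, PRDM11, SIRT6 and SETD6), where 6.68% of all genes were called slower, and faster for 5 (KAT2B, EP300, EZH2, BRD3 and BRD10), where 2.01% of all genes were called faster. When series with the same second number were allowed to correlate, 3 were slower (KDM2B, PRDM11 and SIRT6; 3.14% of all genes) and 1 faster (KAT2B; 0.323%). With each series centred on its median over all genes, the split was 4 slower and 8 faster, and CREBBP, KMT2C and KMT2D were the additional faster genes. Over all genes that centring changed the split from 723 slower and 218 faster to 560 and 432. The 4 slower calls passed without any 1 of the 8 series. Without series 1_1, 1_2 or 2_1 of MDA-LM2 (replicates 1, 2 and 3), KAT2B alone of the 5 faster genes passed, and without series 2_2 of MDA-LM2, or series 1_1 or 2_2 of MDA-MB-231, KAT2B and BRD10 did. Without series 2_1 of MDA-MB-231 EP300 and BRD3 missed the threshold, and without its series 1_2 all 5 passed.

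Of the 46 genes in range, a fit to genes in range alone called 2 slower (SETD6 and EHMT2; 7.44% of genes in range) and 7 faster (KAT2B, EP300, EZH2, BRD3, BRD10, KMT2D and SETDB1; 3.66%). When the correlation between series was added to that fit, 0 were called slower and 0 faster, and the background was 0.0138% slower and 0% faster. At an unadjusted p of 0.05 (limma) there were 11 of 46, beside 1319 of all 7259 genes in range. None of the calls in range held in that fit. In simulated data with noise shared by such series, it recovered 4% of differences of 0.1 and 54% of those of 0.3. A missed call there therefore does not show equal rates.

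KAT2B (PCAF), an acetyltransferase of the SAGA and ATAC coactivator complexes, had the smallest adjusted p among the genes called faster in MDA-LM2. Its rates were 0.131, 0.135, 0.159 and 0.152 in MDA-LM2 against 0.0239, 0.0256, 0.0319 and 0.0211 in MDA-MB-231. The lines did not overlap, and the parental line held KAT2B close to the slow end of all genes, at percentile 6.11, against 42.0 in MDA-LM2. The difference was 0.119 ± 0.0127 (SE, limma adjusted p = 0.00152, and 0.0123 with correlated series).

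EP300 and CREBBP encode the closely related acetyltransferases p300 and CBP. EP300 had 0.332, 0.320, 0.316 and 0.293 in MDA-LM2 against 0.176, 0.246, 0.160 and 0.213 in MDA-MB-231. CREBBP had 0.302, 0.338, 0.341 and 0.316 in MDA-LM2 against 0.129, 0.140, 0.268 and 0.220 in MDA-MB-231. In both genes every MDA-LM2 rate exceeded every MDA-MB-231 rate. The EP300 difference was 0.117 ± 0.0252 (SE, limma adjusted p = 0.0346; 0.118 with correlated series), and CREBBP differed by 0.135 ± 0.0357 without passing (0.0660; 0.308). Within a series the pair differed little: EP300 minus CREBBP was -0.00890 ± 0.0264 in MDA-LM2 against 0.00943 ± 0.0914 in MDA-MB-231, with either sign in both lines.

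EZH2, the methyltransferase of Polycomb repressive complex PRC2, had 0.198, 0.228, 0.235 and 0.180 in MDA-LM2 against 0.101, 0.0909, 0.147 and 0.0919 in MDA-MB-231. The groups did not overlap, and the difference was 0.102 ± 0.0213 (SE, limma adjusted p = 0.0310; 0.160 with correlated series). That value is the median of 2 transcripts, and neither passed alone: NM_001203247 differed by 0.167 and NM_152998 by 0.0373 (adjusted p by limma over all transcripts = 0.101 and 0.625), and each overlapped between the lines. Its paralog EZH1, which can replace it in PRC2, decayed faster than this EZH2 median in 8 of 8 series. The difference was 0.133 ± 0.0313 in MDA-LM2 against 0.162 ± 0.0957 in MDA-MB-231. Taken alone, NM_152998 exceeded EZH1 in series 2_1 of MDA-LM2 (0.343 against 0.325) and 2_2 of MDA-MB-231 (0.186 against 0.120). EZH1 itself overlapped between the lines (0.343 ± 0.0343 and 0.269 ± 0.116; adjusted p = 0.437).

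Of the bromodomain genes, BRD3, a reader of the BET family, had 0.293, 0.345, 0.264 and 0.275 in MDA-LM2 against 0.105, 0.224, 0.0718 and 0.0906 in MDA-MB-231. Its highest MDA-MB-231 rate stood apart from the other three but below all 4 of MDA-LM2. BRD10 had 0.223, 0.275, 0.231 and 0.210 in MDA-LM2 against 0.0854, 0.145, 0.135 and 0.104 in MDA-MB-231, again without overlap. The differences were 0.172 ± 0.0386 for BRD3 (SE, limma adjusted p = 0.0395, and 0.200 with correlated series) and 0.117 ± 0.0224 for BRD10 (SE, 0.0220 and 0.145). BRD2, also of the BET family, had 0.306 ± 0.0431 and 0.247 ± 0.0587 and overlapped (adjusted p = 0.326).

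SETD6, a methyltransferase known for acting on the NF-κB subunit RELA, was the one gene in range among those called slower in MDA-LM2. Its rates were 0.0565, 0.0216, 0.0841 and 0.0419 in MDA-LM2 against 0.190, 0.137, 0.194 and 0.187 in MDA-MB-231. No MDA-LM2 rate reached the lowest of MDA-MB-231. The difference was -0.126 ± 0.0207 (SE, limma adjusted p = 0.0126; 0.0607 with correlated series).

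**Figure D3:**
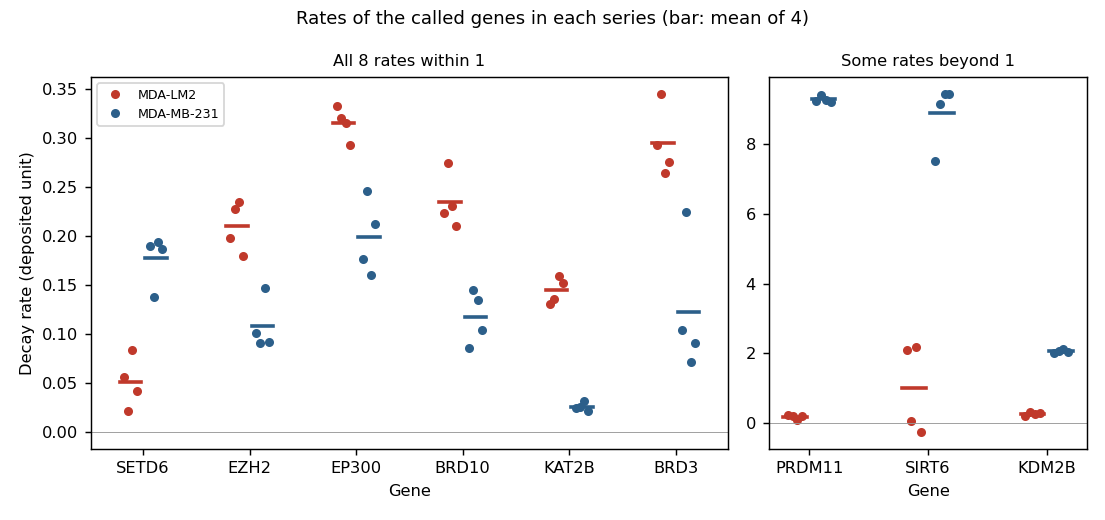
Decay rate (deposited unit, y axis) in each series for the 9 genes past an adjusted p of 0.05 in the fit over all genes; points are single series of MDA-LM2 (red) and MDA-MB-231 (blue) and bars their means. The left panel holds the 6 genes in range, the right panel, on its own scale, the 3 genes with rates beyond 1, where PRDM11 of MDA-MB-231 lies near 9.29 and KDM2B near 2.05.

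The other 3 genes called slower had rates beyond 1 in all 4 series of MDA-MB-231. KDM2B, a JmjC demethylase that also recruits a variant Polycomb complex PRC1 to CpG islands, had 0.210, 0.297, 0.261 and 0.284 in MDA-LM2 against 2.00, 2.05, 2.12 and 2.03 in MDA-MB-231. PRDM11 had 0.214, 0.194, 0.0947 and 0.184 in MDA-LM2 against 9.25, 9.40, 9.27 and 9.22 in MDA-MB-231. The deacylase SIRT6 had 2.08, 0.0402, 2.19 and -0.260 in MDA-LM2 against 7.53, 9.14, 9.44 and 9.43 in MDA-MB-231. Each gene had its MDA-LM2 rates far below those of MDA-MB-231, and the MDA-LM2 rates of SIRT6 fell into 2 sets, by the second number of the series.

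The fitted differences were -1.79 ± 0.113 for KDM2B (SE, limma adjusted p = 6.61e-05; 0.000361 with correlated series), -9.11 ± 0.564 for PRDM11 (6.23e-05; 0.000348) and -7.87 ± 0.881 for SIRT6 (0.00199; 0.00769). When rates were limited to within 1 of 0, SIRT6 no longer passed (adjusted p = 0.258). What a rate near 2 or 9 stands for is not stated, and its relation to abundance was not tested, so these differences are not read as fold changes in half-life. Over all genes, 555 of 10829 had all 4 rates of MDA-MB-231 beyond 1 and 46 all 4 of MDA-LM2. In this group these numbers, by gene value, were 5 of 67 (KDM2B, PRDM11, SIRT6, SETD4 and KAT6B) and 0.

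SETD4 and KAT6B had such rates in single series of MDA-LM2 too. SETD4 had 9.43, -0.0489, 0.327 and 0.0486 in MDA-LM2 against 9.54, 9.68, 7.01 and 7.06 in MDA-MB-231 (adjusted p by limma = 0.157). KAT6B, the acetyltransferase paralog of KAT6A, had 0.295, 4.65, 0.215 and 0.0385 in MDA-LM2 against 1.50, 1.45, 1.15 and 4.66 in MDA-MB-231 (0.657). Both overlapped between the lines. The KAT6B values are medians of 2 transcripts, and neither transcript had all 4 MDA-MB-231 rates beyond 1. In that line NM_001256469 had 2.85, 2.73, 2.32 and -0.0163, and NM_012330 had 0.136, 0.167, -0.0115 and 9.34. In all, 9 of the 67 genes (13.4%) had a rate beyond 1 in MDA-LM2, while 19 (28.4%) did in MDA-MB-231, close to the shares over all genes given above.

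Sorted by the mark they act on, a grouping made after the values had been seen, the H3K4 enzymes separated most steadily. The 6 measured H3K4 methyltransferases (KMT2A, KMT2B, KMT2C, KMT2D, SETD1A and SETD1B) had a median of 0.333 ± 0.0691 in MDA-LM2 against 0.224 ± 0.0242 in MDA-MB-231. The 4 H3K4 demethylases (KDM1A, KDM1B, KDM5A and KDM5B) had 0.150 ± 0.0378 and 0.173 ± 0.0331. Methyltransferases minus demethylases was 0.170, 0.229, 0.155 and 0.179 in MDA-LM2 against 0.0545, 0.0770, 0.0192 and 0.0551 in MDA-MB-231. The writers of this mark thus decayed faster than its erasers in 8 of 8 series, and the difference was larger in each MDA-LM2 series than in any of MDA-MB-231.

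Within that set, KMT2D had 0.296, 0.344, 0.286 and 0.349 in MDA-LM2 against 0.201, 0.102, 0.228 and 0.195 in MDA-MB-231, without overlap (adjusted p by limma = 0.0507; 0.184 with correlated series). KMT2B had 0.350 ± 0.0278 and 0.219 ± 0.0662, also without overlap (0.0789). KMT2C had 0.242 ± 0.00841 and 0.175 ± 0.0464 (0.156) and decayed more slowly than KMT2D in 4 of 4 series of MDA-LM2 and in 2 of 4 of MDA-MB-231. KMT2A overlapped between the lines, with 0.208, 1.95, 0.224 and 0.245 in MDA-LM2 against 0.236 ± 0.0507 in MDA-MB-231. None of the 4 passed the test in that fit.

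For H3K9 and H3 lysine 36 (H3K36) the order was the opposite. The median of the 5 H3K9 methyltransferases minus that of the 4 demethylases was -0.0654 ± 0.0747 in MDA-LM2, and the writers were lower in 7 of 8 series. The same difference was -0.127 ± 0.103 for MDA-MB-231. The 4 H3K36 methyltransferases lay below the 3 demethylases in 8 of 8 series, with a difference of -0.0807 ± 0.0397 in MDA-LM2 against -0.986 ± 1.03 in MDA-MB-231. Of those 3 demethylases, KDM2A and KDM2B had rates beyond 1 in MDA-MB-231, and KDM2A had 1 of 3.04 in MDA-LM2. In range, with 3 methyltransferases and KDM4A as the only demethylase, the MDA-LM2 difference was -0.0572 ± 0.0586 and positive in 1 of 4 series. SETDB1, an H3K9 methyltransferase, had 0.226, 0.598, 0.374 and 0.543 in MDA-LM2 against 0.165, -0.0449, 0.140 and -0.309 in MDA-MB-231, which did not overlap (limma adjusted p = 0.0809, and 0.0484 among genes in range). Those values are medians of 2 transcripts, NM_001145415 and NM_001243491. Neither passed alone (adjusted p by limma over all transcripts = 0.139 and 0.302), and the second overlapped between the lines.

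Some paralogs kept their order in every series. Of 16 pairs examined, KDM3A decayed faster than KDM3B in 8 of 8 series, by 0.0563 ± 0.00460 in MDA-LM2 against 0.124 ± 0.0162 in MDA-MB-231. These encode H3K9 demethylases of one subfamily. KDM1A (LSD1) had a lower rate than KDM1B in 7 of 8 series, and KDM1A minus KDM1B was -0.0648 ± 0.0502 and -0.119 ± 0.0344. The KDM1A value is the median of 2 transcripts. Taken alone, NM_015013 exceeded KDM1B in series 1_1 of MDA-MB-231 (0.284 against 0.150). In both pairs the gene values overlapped between the lines, and none of the 4 genes passed the test (limma adjusted p of 0.245 to 0.676).

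Other pairs kept their order in 1 line or in neither. HDAC1 minus HDAC2 was -0.0936 ± 0.0219 in MDA-LM2, negative in 4 of 4 series, and 0.0183 ± 0.0528 in MDA-MB-231, negative in 2 of 4. SETD1A exceeded SETD1B in 3 of 4 series of MDA-LM2 (0.104 ± 0.133) and in 0 of 4 of MDA-MB-231 (-0.132 ± 0.0912). KAT2A minus KAT2B was -0.00339 ± 0.0420 in MDA-LM2 against 0.184 ± 0.219 in MDA-MB-231. KDM5A minus KDM5B was -0.0357 ± 0.0313 and -0.0177 ± 0.148, and negative in 4 of 4 series of MDA-LM2 and 2 of 4 of MDA-MB-231. None of these changes of order between the lines was tested.

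The remaining 7 pairs each held a gene with rates beyond 1. They were KAT6A and KAT6B, EHMT1 and EHMT2, KMT2A and KMT2B, SETDB1 and SETDB2, NSD1 and NSD2, KDM2A and KDM2B, and HDAC4 and HDAC5. NSD1, an H3K36 methyltransferase, for instance had 0.178, 0.181, 0.185 and 1.37 in MDA-MB-231. In MDA-LM2, where NSD1 and NSD2 were both within 1, NSD1 exceeded NSD2 in 4 of 4 series, by 0.0630 ± 0.0425.

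Among the 6 of 9 deacetylases in range there were slower and faster messages, a grouping made after their values had been seen. The class I enzymes HDAC1, HDAC2 and HDAC3, which work in nuclear corepressor complexes, had mean rates of 0.00817, 0.102 and 0.0868 in MDA-LM2. In MDA-MB-231 they had 0.0949, 0.0766 and 0.126. HDAC4 and HDAC7, class IIa enzymes that shuttle between nucleus and cytoplasm, and the NAD-dependent SIRT1 had 0.259, 0.306 and 0.312, and in MDA-MB-231 0.258, 0.389 and 0.279. The highest of the first 3 was below the lowest of the other 3 in 7 of 8 series, the exception being series 1_2 of MDA-MB-231. None of the 6 was called between the lines (limma adjusted p of 0.215 to 0.997). HDAC5, HDAC9 and SIRT6 had rates beyond 1 and are not in that comparison. HDAC5, also of class IIa, did not follow HDAC4 and HDAC7 in MDA-LM2, with 0.0888, 0.339, 0.0281 and 0.112.

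Among demethylases in range, KDM1A had the lowest mean rate by gene value in both lines, below its paralog KDM1B and the JmjC families KDM3, KDM4 and KDM5. That value is the median of 2 transcripts, which were unlike in MDA-MB-231. There NM_001009999 had -0.0237 ± 0.0678 and NM_015013 0.181 ± 0.0792, the latter above KDM3B (0.156 ± 0.0575). KDM4A had 0.310, 0.270, 0.309 and 0.217 in MDA-LM2 against 0.278, 0.359, 0.334 and 0.327 in MDA-MB-231. KDM4B had 0.286 ± 0.0481 against 0.247 ± 0.245, and its MDA-MB-231 rates ran from 0.0216 to 0.563. Both overlapped (limma adjusted p = 0.341 and 0.836). Every demethylase in range overlapped between the lines.

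Of the 67 genes, 21 had at least 1 rate beyond 1, and 5 of these had it in all 4 series of MDA-MB-231, as given above. SUV39H2, an H3K9 methyltransferase of heterochromatin, had 0.0983, 0.115, 0.116 and 0.205 in MDA-LM2 against 0.156, 2.98, -0.0242 and 9.50 in MDA-MB-231. SETD9 had -0.151, -0.111, 0.0422 and -0.123 against 0.409, 9.52, 0.147 and 9.68, without overlap. Neither passed the test (limma adjusted p = 0.365 and 0.262). By gene value, KMT2A and KAT7 were the genes of this kind with rates beyond 1 in MDA-LM2 alone, in 1 series each. The KAT7 value is the median of 3 transcripts, and single transcripts had such rates in MDA-MB-231 too. In that line NM_001199156 had -5.51, 0.435, 0.538 and -2.58, and NM_001199157 had 8.18, 0.107, 7.90 and 0.312. In MDA-LM2 NM_001199156 had 9.49, 2.33, 2.15 and 0.412.

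Transcripts of one gene did not always move alike. Of the 84 transcripts, limma over all 12966 called 5 slower in MDA-LM2 (6.04% of all transcripts) and 5 faster (1.9%). Both transcripts of BRD8, a bromodomain subunit of the NuA4/TIP60 acetyltransferase complex, were among them, in opposite directions. The transcript NM_001164326 had 0.345, 0.459, 0.303 and 0.310 in MDA-LM2 against 0.0733, 0.187, 0.140 and 0.115 in MDA-MB-231 (adjusted p = 0.0236; 0.148 with correlated series). The transcript NM_006696 had 0.226, 0.195, 0.236 and 0.208 in MDA-LM2 against 0.384, 0.649, 0.454 and 0.537 in MDA-MB-231 (0.0274; 0.0889).

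Neither BRD8 transcript overlapped between the lines, while their median, the gene value used above, did (0.285 ± 0.0299 and 0.317 ± 0.0785; adjusted p = 0.622). Within a series, the first minus the second was 0.138 ± 0.0866 in MDA-LM2 against -0.377 ± 0.0764 in MDA-MB-231. For KDM1A, NM_001009999 minus NM_015013 was 0.0220 ± 0.0558 in MDA-LM2 against -0.205 ± 0.136 in MDA-MB-231. Neither KDM1A transcript passed the test (limma adjusted p = 0.200 and 0.0939), NM_001009999 overlapped between the lines, and the difference was positive in 3 of 4 series of MDA-LM2 and in 0 of 4 of MDA-MB-231. In BRD8 and in KDM1A the change of that difference between the lines had a two-sided exact permutation p of 0.0286, the smallest that 4 against 4 series can give, and an adjusted p of 0.171 over the 12 genes with 2 transcripts that were compared. That test takes the series as exchangeable and makes no allowance for the likeness of series with the same second number. How the authors' estimation divided reads between transcripts of one gene is not stated.

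**Figure D4:**
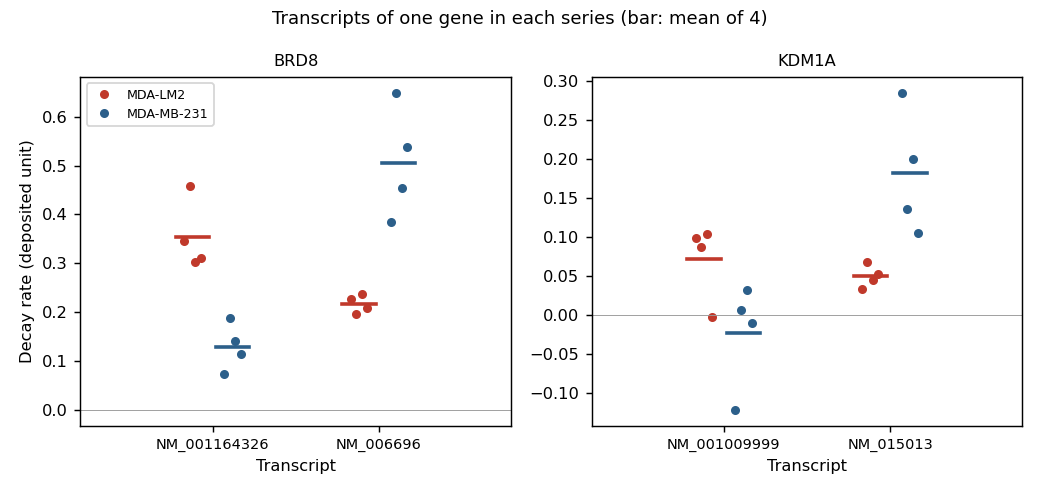
Decay rate (deposited unit, y axis) of the 2 measured transcripts of BRD8 (left) and KDM1A (right) in each series; points are single series, bars means of 4, MDA-LM2 in red and MDA-MB-231 in blue. For BRD8 the red points are above the blue ones in NM_001164326 and below them in NM_006696.

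Coding length ran with the rate among the genes in range. Spearman's rho across the 46 genes was 0.539 in MDA-LM2 against 0.355 in MDA-MB-231, beside 0.230 and 0.0993 across the 6487 coding genes in range with an annotated transcript. Over all 67 genes it was 0.322 and -0.0354. These are descriptions across genes, which share libraries and are not independent. KMT2D and KMT2C, the longest with 16611 and 14733 coding bases, were at 0.319 ± 0.0322 and 0.242 ± 0.00841 in MDA-LM2. Among the shortest, SETD7 (1098 bases), HDAC3 (1284) and SETD3 (1335) were at 0.0955 ± 0.0162, 0.0868 ± 0.0121 and 0.0776 ± 0.0245. KMT5A was an exception at 1056 bases and 0.266 ± 0.0337. For the length of the 3′ UTR rho was 0.0540 in MDA-LM2, with 0.00463 in MDA-MB-231, across the same 46 genes.

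**Figure D5:**
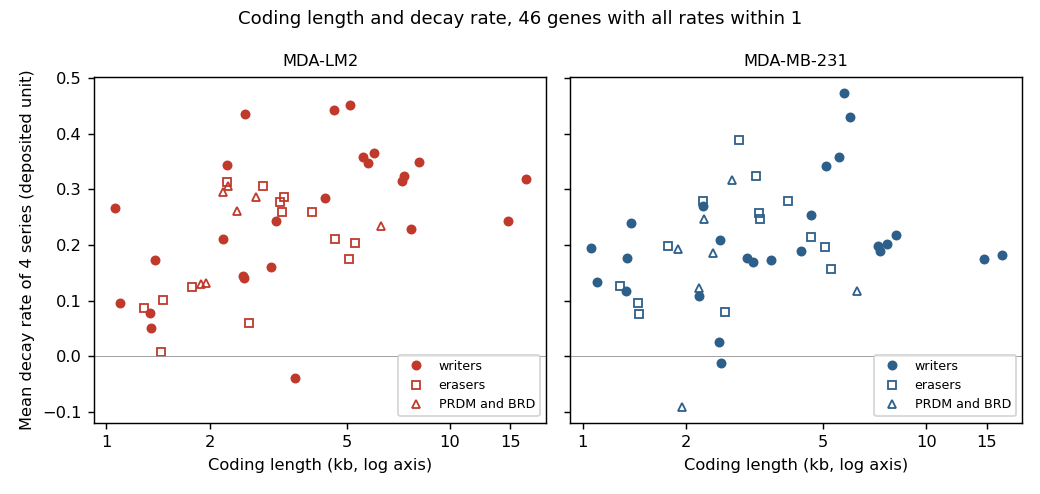
Mean decay rate of the 4 series (deposited unit, y axis) against coding length (kb, log axis) for the 46 genes in range, in MDA-LM2 (left) and MDA-MB-231 (right); filled circles are writers, squares erasers and triangles PRDM and BRD genes. The points rise with length more clearly in MDA-LM2 (Spearman's rho 0.539) than in MDA-MB-231 (0.355).

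Partner proteins of these enzymes were looked at in 5 lists. Of 20 measured Polycomb and related genes, 3 decayed more slowly in MDA-LM2 and 0 faster (limma, adjusted over all genes), beside 6.68% slower and 2.01% faster over all genes, the background for each of the 5 lists. They were PCGF1 (0.377 ± 0.0756 and 9.88 ± 0.0220; adjusted p = 6.08e-05), RBBP7 (0.0207 ± 0.0171 and 0.120 ± 0.00960; 0.00614) and BAP1 (0.133 ± 0.0177 and 0.222 ± 0.0127; 0.0205). PCGF1 is a partner of KDM2B in the variant PRC1, RBBP7 is a histone chaperone of PRC2 and deacetylase complexes, and BAP1 removes ubiquitin from histone H2A. With correlated series PCGF1 and RBBP7 passed (adjusted p = 0.000335 and 0.0423) and BAP1 did not (0.0865). Every MDA-MB-231 rate of PCGF1 lay beyond 1 (9.85 to 9.90), and what such a rate stands for is not stated. The PCGF1 difference is therefore not read as a fold change in half-life.

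Of 10 subunits of the H3K4 methyltransferase complexes, 0 were called in either direction. Of 25 subunits of deacetylase complexes 1 was slower, ING2, which binds methylated H3K4 in the SIN3 complex (0.585 ± 0.142 and 9.70 ± 0.0278; adjusted p = 6.08e-05). Of 35 subunits of acetyltransferase complexes 1 was slower, SUPT20H of SAGA (0.0834 ± 0.0651 and 1.29 ± 0.0914; 6.08e-05), and 1 faster, MSL2 of the MSL complex (0.344 ± 0.0371 and 0.150 ± 0.0437; 0.0108). Of 20 other modifiers 1 was faster, the demethylase PHF2 (0.280 ± 0.0272 and 0.177 ± 0.0240; 0.0360). With correlated series MSL2 and PHF2 missed the threshold (0.0585 and 0.181). Every MDA-MB-231 rate of ING2 (9.68 to 9.74) and of SUPT20H (1.23 to 1.43) lay beyond 1. The differences of ING2 and SUPT20H, like that of PCGF1, are therefore not read as fold changes in half-life. A single call in a list of 20 to 35 genes is not read as a result about that list. Over all genes 33.2% were higher in MDA-LM2, with a median difference of -0.0532. The Polycomb list had 10 of 20 higher (median difference 0.00133), the H3K4 complexes 5 of 10 (-0.00252), the deacetylase partners 9 of 25 (-0.0531), the acetyltransferase partners 21 of 35 (0.0240) and the other modifiers 8 of 20 (-0.0319).

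The other genes that fit the rule could not be compared. Of the 96 autosomal coding genes with a fitting name, 20 had no row in either table, KDM6B, PRDM1, SIRT2 and SIRT5 among them. A further 8 had no transcript in both tables: KAT14, KDM4C, KDM7A, KDM8, PRDM15 and SIRT7 were in that of MDA-LM2 only, HDAC10 in that of MDA-MB-231 only, and SIRT3 had different transcripts in the tables. In MDA-LM2, KDM7A, a demethylase of H3K9 and H3K27, had 0.145, 0.252, 0.241 and 0.444, and SIRT3, a mitochondrial deacetylase, had 0.194 ± 0.0648. SIRT7 had 1 rate of 8.95 beside 3 of 0.262 to 0.586. BRD3OS, a neighbour of BRD3 that fits the letters of the rule, had no row of a coding transcript. HDAC6, HDAC8, KDM5C and KDM6A were left out as X-linked.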

How the data were processed

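The unit of analysis is the decay rate per transcript and replicate series, which the authors deposited in 1 table per line; per the file headers and the labels a rate describes the loss of labelled RNA over the chase, and such a rate is treated here as a score with no fixed range. The submitters' processing notes name TopHat, Cufflinks and the build hg18, without versions or roles. For the log base, the scaling and zeros, the method is not given in the sources used here. Read depth is unknown, so no interval that needs it is given. A differential score per transcript was deposited too, positive where decay is slower in MDA-LM2, used here as an alternative test only.

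Of 14545 transcripts in the table of MDA-LM2 and 14193 in that of MDA-MB-231, 12966 were in both. Gene names were taken from RefSeq for assembly GRCh38.p14 (12642 accessions) and GENCODE v29 (119); 205 had none and were kept as they were. The median over a gene's coding transcripts was used, or over its other transcripts where it had no coding one. This gave 10829 features, called genes in the text above, of which 10624 had a name. limma 3.58.1 (R 4.3.3) compared 4 against 4 series with a variance trend and no block, two-sided, with Benjamini-Hochberg adjustment over all features. It was tested on simulated data for genes in range. There, noise shared by series of the same second number gave this fit 43 false calls among 149, more than its threshold allows. The fit with correlated series, given beside the calls, held its rate there, with 3 false calls among 61. Under that noise it recovered 54% of differences of 0.3 and 4% of those of 0.1, against 84% and 22% for the fit without correlation. Other steps used Python 3.11.15 with numpy 2.4.6, pandas 2.3.3, scipy 1.17.1 and matplotlib 3.10.9.

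The histone-modifying genes, the partner lists and the tests were chosen with earlier results of these data known. Genes were named by rule: those past an adjusted p of 0.05, the 5 fastest and 5 slowest in range, those with all 4 rates of a line beyond 1, both genes of each measured paralog pair but 1, which is not reported here, and genes of other lists past the threshold. Further genes, among them BRD2, BRD8, HDAC3, HDAC7, SIRT1, KDM4A, KDM4B, SUV39H2, SETD9, KDM7A and the length examples, were named after their values were seen. Alternatives covered the correlation between series, a replicate block, scaling, the variance model, the gene value, the range of rates, the deposited score and leaving out each series. A fit restricted to genes in range with correlated series, the transcript fit, the grouping by mark and the transcript comparison were added after seeing the data. Sites were read from GENCODE v29 transcripts on GRCh38, a build other than that of the rates.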

Additional observations from a re-analysis of the deposited data

Results flagged for a closer look

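Among 102 groups of 4 series (each gene or class median in 1 line), 14 had 1 series far from the others relative to the group's range; chance flags about 1 group in 20, or 5%. In MDA-LM2 the series standing apart were -0.0184 for HDAC1, 4.65 for KAT6B, 3.04 for KDM2A, 1.95 for KMT2A, 0.255 for KMT2C, 9.43 for SETD4 and 0.253 for the median of the demethylases. In MDA-MB-231 they were 9.34 for HDAC5, 4.66 for KAT6B, 1.37 for NSD1, 0.137 for SETD6, -1.35 for SETDB2, 7.53 for SIRT6 and 2.43 for the median of the PRDM genes. In 8 of the 14 the value was a single rate beyond 1 among rates within it, as in HDAC5, where the other 3 series lay between 0.0693 and 0.340. SETD6 and SIRT6 were both called slower in MDA-LM2, and in each the series standing apart was the one of MDA-MB-231 nearest to MDA-LM2.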

How the results depend on the processing

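Calls by limma were 4 histone genes slower and 5 faster in MDA-LM2, and 723 and 218 of all genes. The replicate numbers did not pair the lines (deviations of same-numbered series correlated at -0.0384 to -0.00473). With a replicate block the histone genes gave 2 and 0 and all genes 247 and 27. In that limma fit 2370 of 10829 genes, and 21 of the 67 histone genes, were at an unadjusted p of 0.05. With series sharing the second number correlated (estimate 0.459) they gave 3 and 1, and 340 and 35. With those sharing the first number correlated (-0.444) they gave 9 and 13, and 2156 and 793. Centred series gave 8 histone genes and 432 of all genes faster. Genes in range alone gave 2 histone genes slower, and with correlated series 0 and 0, and 1 and 0 of all genes (1319 at an unadjusted p of 0.05). The deposited score gave 2 histone genes and 137 of all genes faster. Leaving out 1 series at a time gave 4 to 5 histone genes slower and 1 to 9 faster, and 402 to 998 and 84 to 283 of all genes; without MDA-LM2 replicate 1, 2 or 3 only KAT2B of the 5 faster genes was called, without MDA-LM2 replicate 4 and MDA-MB-231 replicates 1 and 4 there were 2, and 9 without MDA-MB-231 replicate 2. KDM2B and PRDM11 passed under each of the 17 alternatives run on them, and KAT2B under 17 of 19. Writers minus erasers in MDA-LM2 was -0.0236 with means over genes and 0.0565 in range; in MDA-MB-231 the mean gave -0.288. Without SIRT1 and SIRT6 it was -0.0251 there. Leaving out SIRT3, SIRT4 and SIRT5 could change nothing, since none had a transcript shared by the tables. The causes were not tested, apart from the fewer genes or series that some alternatives hold. Depth is unknown, so an undetected difference cannot be told from a shallow one.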
